A study of Mus musculus with 4 samples.

Results

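A group of 7 genes of the alpha-v integrin system was followed: the subunit Itgav, its beta partners Itgb1, Itgb3, Itgb5, Itgb6 and Itgb8, and the secreted ligand Mfge8. They make up 7 of the 19938 genes that carry a single gene symbol on the arrays. The genes were picked by name, and for each the array feature was selected on the highest mean level over the 4 arrays. Each of the 7 has 1 feature, so that choice removed nothing, and the difference between genotypes did not enter it. The genes were, however, proposed with earlier results of this same comparison known, so the number of them that changed is given as a description only.

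Dorsal cortex was taken from E18.5 mouse embryos, late in embryonic life, and its RNA was measured on 2 arrays of mutants and 2 arrays of controls. Mutants carried Mek1fl/fl, Mek2-/- and NestinCre, and controls carried Mek1fl/wt and Mek2-/- with no Cre named. Both genotypes therefore lack Mek2, one of a pair of kinases that activate ERK, although the controls are named wild type in the design text. NestinCre drives the recombinase Cre from nestin regulatory sequence and so acts in neural progenitors and their offspring, whereas endothelium and microglia arise from other lineages. Effects of the transgene and of losing Mek1 cannot be told apart in this design.

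Integrins are cell surface receptors made of an alpha and a beta chain, and they join extracellular matrix to the actin cytoskeleton. Alpha-v is one of the least selective alpha chains and takes any of several beta chains, most of which then bind proteins that carry an Arg-Gly-Asp motif. Among these ligands are vitronectin, the latent forms of TGF-beta, and Mfge8, which also binds phosphatidylserine on dying cells and so links them to alpha-v beta-5 or alpha-v beta-3 on a phagocyte. In the mouse brain, alpha-v beta-8 on radial glia is known to be needed for stable blood vessels, and astrocytes are known to make Mfge8.

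Of the 7 genes, Mfge8, Itgav and Itgb5 fell in the mutants, and their promoter windows are shown because these are the genes called lower. The windows run from 250 bases before to 50 bases after the annotated start, in the direction of transcription, from RefSeq on GRCm38.p6. Capitals mark CGGAAG, a form of the core recognised by ETS factors, and GGGCGG, the GC box, each on either strand (CTTCCG and CCGCCC). The Mfge8 window lies at chr7:79149011-79149310 on the minus strand, the Itgav window at chr2:83724147-83724446 on the plus strand, and the Itgb5 window at chr16:33829415-33829714 on the plus strand.
Mfge8: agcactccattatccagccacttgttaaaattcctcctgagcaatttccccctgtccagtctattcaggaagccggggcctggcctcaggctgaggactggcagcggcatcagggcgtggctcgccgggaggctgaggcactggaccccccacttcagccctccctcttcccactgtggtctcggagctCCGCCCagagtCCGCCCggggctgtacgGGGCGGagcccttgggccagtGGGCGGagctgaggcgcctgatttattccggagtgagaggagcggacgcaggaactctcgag
Itgav: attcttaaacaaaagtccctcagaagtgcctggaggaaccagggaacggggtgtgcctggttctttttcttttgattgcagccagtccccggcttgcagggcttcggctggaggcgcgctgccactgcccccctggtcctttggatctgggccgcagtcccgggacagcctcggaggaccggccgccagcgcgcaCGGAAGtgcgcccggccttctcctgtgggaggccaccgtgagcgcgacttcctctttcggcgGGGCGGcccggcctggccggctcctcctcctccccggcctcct
Itgb5: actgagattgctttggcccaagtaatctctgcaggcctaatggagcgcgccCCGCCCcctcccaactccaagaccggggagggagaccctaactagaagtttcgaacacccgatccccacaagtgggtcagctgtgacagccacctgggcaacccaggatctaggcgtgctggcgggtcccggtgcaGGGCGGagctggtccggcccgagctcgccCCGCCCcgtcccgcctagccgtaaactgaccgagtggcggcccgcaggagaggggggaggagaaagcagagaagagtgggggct

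The GC box stood 4 times in the Mfge8 window, 3 times in that of Itgb5 and 1 time in that of Itgav. Among all 32851 windows of this length in the table, 35.7% held at least 1 GC box and 10.7% held 3 or more. CGGAAG was found 1 time, in the Itgav window at base 196, and 16.9% of all windows held it. Other forms of the ETS core were not searched for. The AP-1 motif TGANTCA, held by 7.81% of all windows, was in none of these sequences. No match overlapped another. Windows were matched for 6 of the 7 genes, all but Itgb3. Itgb1 held 1 GC box, while the Itgb8 window and both Itgb6 windows held none of the 3 motifs. These are matches of letters only, and binding was not measured.

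Values below are log2 expression as normalized by the authors with RMA, and differences are mutant minus control. Mek1 itself (Map2k1) had 8.50 and 8.73 in mutants, against 8.76 and 8.84 in controls, and its difference was -0.19 ± 0.09 (SE), not past the threshold (limma adjusted p = 0.469). Mek2 (Map2k2), which both genotypes lack, had 8.57 and 8.64 in mutants, against 8.57 and 8.47 in controls (limma adjusted p = 0.657). Where their probes lie relative to the deleted parts was not known here, so neither feature serves as a check of the labels. The dorsal cortex markers Emx1, Tbr1 and Neurod6 lay between 8.66 and 12.1 on all arrays, above the 6.16 under which dim genes were left out. The fourth such marker measured, Emx2, was dimmer and lower in mutants, with 6.70 and 7.56 in mutants, against 7.80 and 7.86 in controls (-0.70 ± 0.27 SE, limma adjusted p = 0.363). Xist and 3 Y-linked genes put mutant 1 and control 2 as male and the other two as female, so the arrays of each genotype come from different embryos.

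Mfge8 showed the largest difference of the 7 genes. It had 8.79 and 9.22 in mutants, against 10.41 and 10.37 in controls. Both mutant arrays were far below both control arrays, and mutant 1 was the lower of the mutants. The means were 9.00 ± 0.31 in mutants and 10.39 ± 0.02 in controls (SD, n = 2 each). The difference of -1.38 ± 0.14 (SE) left 38.3% of the control level, with a 95% interval of 29.8% to 49.3% (limma adjusted p = 0.0278). Only 13 of the 13956 genes tested, Mfge8 included, had a difference this low. The mutant arrays differed from each other by 0.44 and the controls by 0.03. Set against the control mean, mutant 1 was lower by a difference of -1.60 and mutant 2 by -1.17.

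Itgav, the alpha chain shared by all these receptors, had 7.53 and 7.67 in mutants, against 8.34 and 8.30 in controls. The groups did not overlap, and the spread within each was small beside the gap. Its difference was -0.72 ± 0.07 (SE), which left 60.9% of the control level, with a 95% interval of 54.1% to 68.6% (limma adjusted p = 0.0254).

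Itgb5, the beta chain of the vitronectin receptor alpha-v beta-5, had 7.24 and 7.28 in mutants, against 8.00 and 7.94 in controls. Its groups were again well apart. The difference was -0.71 ± 0.06 (SE), which left 61.0% of the control level, with a 95% interval of 55.2% to 67.4% (limma adjusted p = 0.0206). Itgav and Itgb5 thus had nearly the same difference, and 93 and 96 genes of all tested were as low or lower.

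The other beta chains showed small differences, and none passed the test. Itgb8, whose product pairs with alpha-v alone and activates latent TGF-beta, had 9.45 and 9.48 in mutants, against 9.74 and 9.63 in controls. Both mutants lay below both controls, by a mean of -0.22 ± 0.06 (SE) with a 95% interval of -0.38 to -0.06, and the limma adjusted p was 0.237. Itgb1, which pairs with many alpha chains, had 10.16 and 10.25 in mutants, against 10.35 and 10.32 in controls. Its mutants were also below its controls, by -0.13 ± 0.06 (SE) with an interval of -0.28 to 0.03 (limma adjusted p = 0.462). Itgb3, known from platelets, osteoclasts and vessels, had 6.62 and 6.55 in mutants, against 6.58 and 6.67 in controls. These values overlapped, with a difference of -0.04 ± 0.06 (SE), an interval of -0.20 to 0.12 and a limma adjusted p of 0.850. Itgb3 lay little above the filter level of 6.16, where differences are compressed. The intervals are not adjusted for the number of genes.

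Itgb6, a beta chain known from epithelia, was under the filter and was not tested. It had 4.61 and 4.41 in mutants, against 4.11 and 4.54 in controls. These values overlapped and lay far below the filter level.

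**Figure D1:**
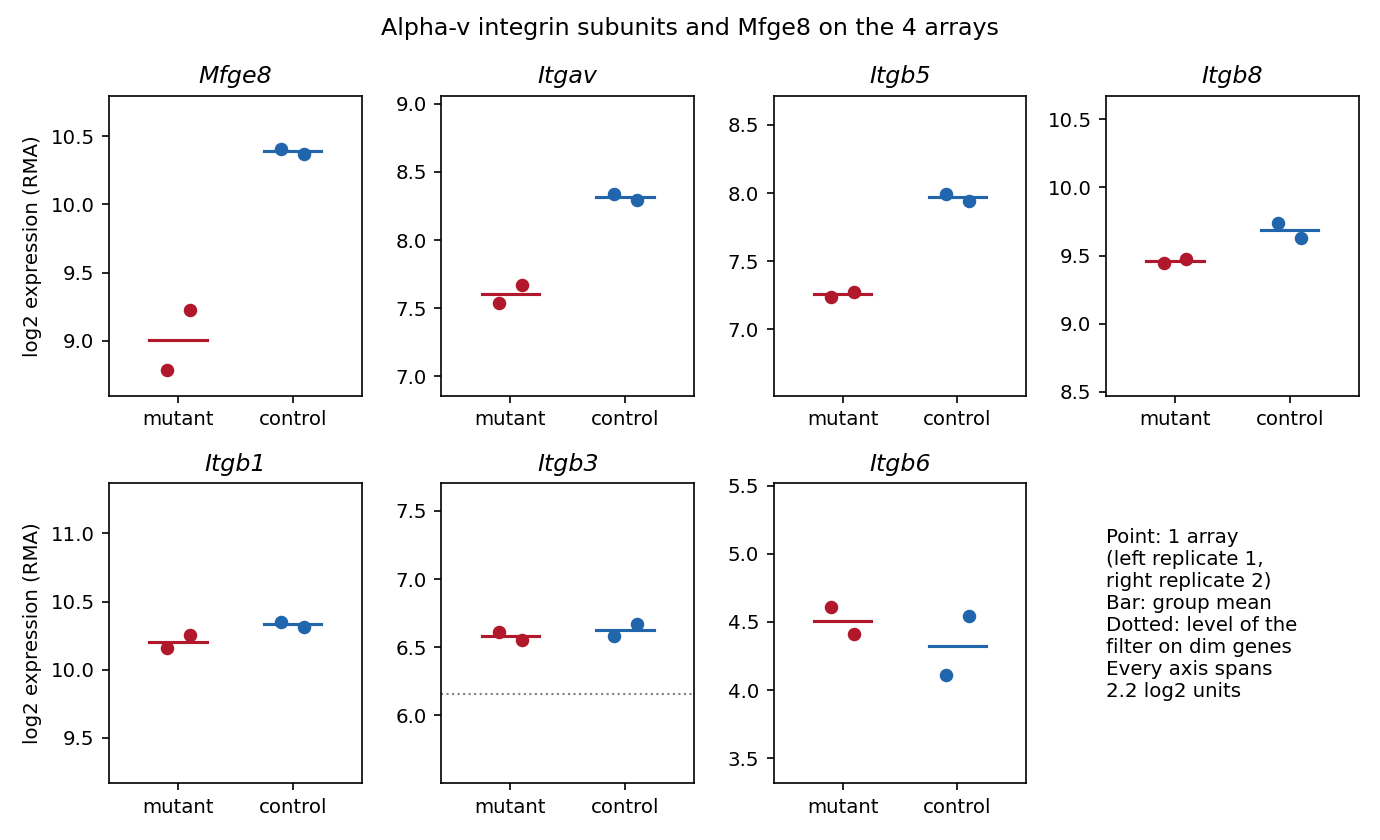
Each panel plots log2 expression of 1 gene on the 4 arrays, mutants left and controls right, with a point for each array and a bar for the group mean; every vertical axis spans the same range, and the dotted line is the filter level of 6.16. For Mfge8, Itgav and Itgb5 the mutant points lie well below the control points, whereas for Itgb3 and Itgb6 the groups overlap.

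In all, 6 of the 7 genes passed the filter and were tested. Of these, 3 fell and none rose in limma at an adjusted p under 0.05, while 1.01% of all genes tested fell and 1.02% were called in either direction. For 5 of the 6, both mutants lay below both controls, as did 21.4% of all genes tested. The median difference of the 6 was -0.47, against 0.01 over all genes tested. With 2 arrays against 2, an exact permutation test of a single gene cannot give a two-sided p below 0.333, so each p above rests on the spread that limma shares between genes.

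The embryos' sex crosses the genotypes. Between the male arrays, mutant 1 and control 2, the difference was -1.59 for Mfge8, -0.76 for Itgav and -0.71 for Itgb5. Between the female arrays, mutant 2 and control 1, it was -1.18, -0.67 and -0.72. These all had to be in the direction of the pooled differences, since both mutants lay below both controls for each gene. With sex as a covariate the 3 genes had a limma adjusted p of 0.0540 each and were not called. They were not called without control 1 (adjusted p of 0.161 for Mfge8 and Itgb5, and 0.185 for Itgav), without control 2 (adjusted p between 0.133 and 0.164), or when dim genes were kept (adjusted p between 0.0660 and 0.0745). They were called without mutant 1 and without mutant 2.

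No other integrin chain was called. Of 17 other alpha chains, 12 were tested and none was called in limma. Their median difference was 0.05, and at an unadjusted p under 0.05 there was 1 lower and 1 higher gene. Over all genes tested, 7.69% were lower and 5.73% were higher at that unadjusted threshold, so these counts lie near the background. The lower one, Itga6, the laminin receptor chain of radial glia, had 8.05 and 8.13 in mutants, against 8.32 and 8.33 in controls (-0.23 ± 0.06 SE, adjusted p = 0.196 in limma). The higher one was Itga9, a receptor chain for tenascin-C, at 0.16 ± 0.06 (SE, adjusted p = 0.317 in limma). Of 3 other beta chains, 2 were tested and none was called in limma. Itgb4, the partner of Itga6 in hemidesmosomes, differed by 0.22 ± 0.06 (SE) with an adjusted p of 0.221, the only one at an unadjusted p under 0.05, and Itgb7 of lymphocytes by 0.11 ± 0.06 (SE) with an adjusted p of 0.458 in limma. In these lists 1 alpha chain was lower, 3 alpha chains higher and 2 beta chains higher without overlap. Among all genes tested, 21.4% were lower and 22.8% were higher without overlap.

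**Figure D2:**
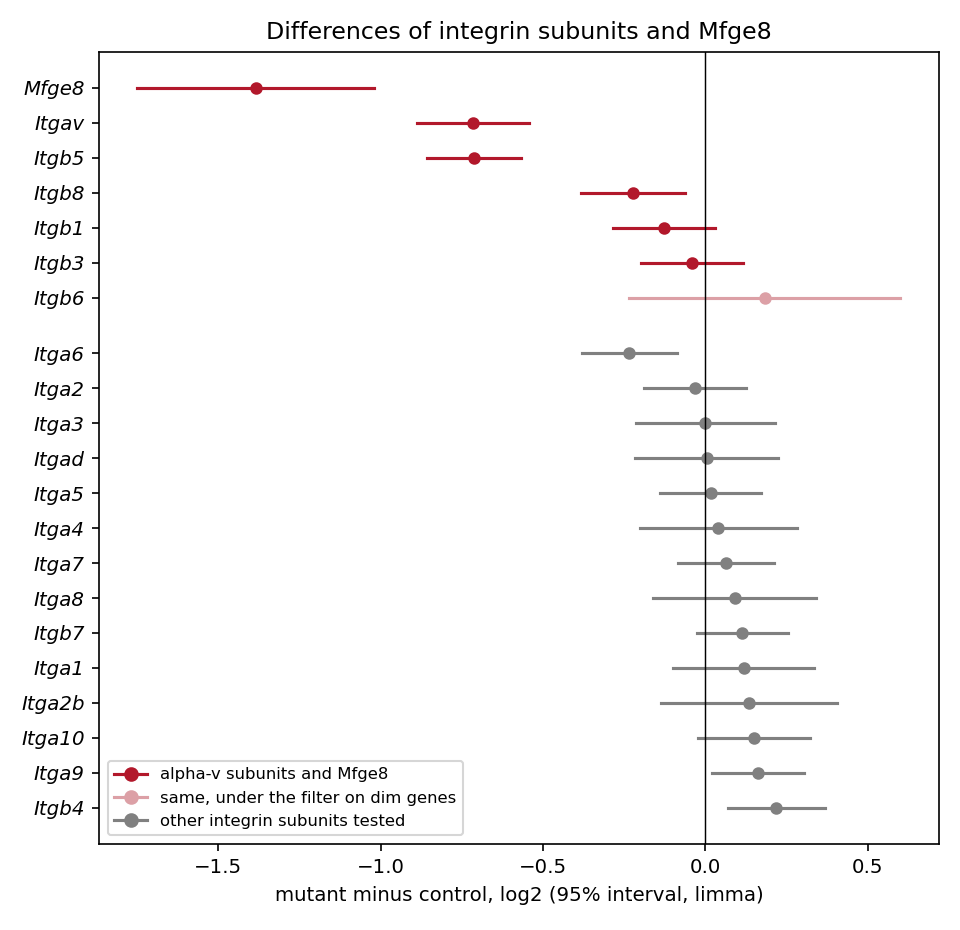
The horizontal axis is the log2 difference, mutant minus control, with its 95% interval from limma, for the 7 genes in red and for the 14 other integrin subunits tested in grey; Itgb6, in pale red, was under the filter. The intervals of Mfge8, Itgav and Itgb5 lie below -0.5, and those of the other subunits lie above it.

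The ligand side of the system had 1 further gene that fell. Of 21 other proteins known to bind alpha-v integrins, 16 were tested, 1 fell, none rose and 15 did not pass in limma, where 1.01% of all genes tested fell. At an unadjusted p under 0.05, 4 were lower and 2 were higher, against 7.69% and 5.73% of all genes tested. The gene that fell was Tnc, tenascin-C, a matrix protein of radial glia and astrocytes. It had 8.30 and 8.71 in mutants, against 10.78 and 10.65 in controls, the mutants lower by a wide gap (-2.21 ± 0.14 SE, limma adjusted p = 0.0135). The call was lost when control 1 or control 2 was left out (differences of -2.14 and -2.28). It was also lost when every feature on the arrays was tested (limma adjusted p = 0.258). Thbs1, thrombospondin 1, had 9.70 and 9.69 in mutants, against 9.39 and 9.36 in controls, a difference of 0.32 ± 0.05 (SE) with an adjusted p of 0.0859 in limma. A variance trend made it a called gene, higher in mutants (adjusted p = 0.0381), as did the omission of mutant 2 (adjusted p = 0.0462). The median of the 16 was 0.01. Vtn, vitronectin, which pericytes make, differed by 0.04 ± 0.13 (SE, limma adjusted p = 0.935; chosen after its value was seen).

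Alpha-v beta-8 and alpha-v beta-6 activate latent TGF-beta. A list of genes of TGF-beta activation and of the signalling after it, receptors and Smad genes included, gave no call among 17 tested in limma. Its median was 0.07. At an unadjusted p under 0.05, 2 were lower and 4 were higher, where 7.69% and 5.73% of all genes tested were. Tgfb2, a TGF-beta ligand, had 6.92 and 7.42 in mutants, against 7.85 and 7.92 in controls. Both mutants were lower, with mutant 1 the lower of them, and the difference was -0.72 ± 0.16 (SE, limma adjusted p = 0.165). It passed without mutant 1 (-0.47, adjusted p = 0.0337) and without mutant 2 (-0.97, adjusted p = 0.00155), when the spread came from the control pair alone. Tgfb3, a further TGF-beta ligand, differed by -0.24 ± 0.05 (SE, limma adjusted p = 0.166). All 4 of the higher genes code for a receptor or a Smad protein, and differences in the list ranged from -0.72 to 0.43. Without overlap between the groups, 3 of its genes were lower and 8 higher, against 21.4% and 22.8% of all genes tested.

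On the inner side of the membrane, proteins that couple integrins to actin showed no call among 26 tested in limma, with a median of -0.00. At an unadjusted p under 0.05, 2 were lower and 4 were higher, beside the same 7.69% and 5.73% of all genes tested. The scaffold Bcar1 differed by 0.25 ± 0.07 (SE) and the kinase Ptk2b by 0.29 ± 0.08 (SE), with adjusted p of 0.226 and 0.231 in limma. Ptk2b was called higher without mutant 2 (0.39, adjusted p = 0.0256).

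Mfge8 acts in the uptake of dying cells, and 2 genes of that process fell. Of 21 on the list, 17 were tested, 2 fell, none rose and 15 did not pass in limma, where 1.01% of all genes tested fell, and the median was -0.01. At an unadjusted p under 0.05, 5 were lower and 0 higher, against 7.69% and 5.73% of all genes tested. Megf10, an engulfment receptor of astrocytes, had 6.71 and 6.75 in mutants, against 7.25 and 7.17 in controls (-0.48 ± 0.06 SE, limma adjusted p = 0.0426). Dock1, which activates the GTPase Rac downstream of alpha-v beta-5, had 7.25 and 7.34 in mutants, against 7.89 and 7.79 in controls (-0.55 ± 0.07 SE, limma adjusted p = 0.0427). The groups were apart in both. Neither was called without control 1, without control 2, when dim genes were kept, or with sex as a covariate. Both also lost the call when every feature was tested (limma adjusted p = 0.316 each). The same held with the replicate number as a block (limma adjusted p of 0.0716 and 0.0761).

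**Figure D3:**
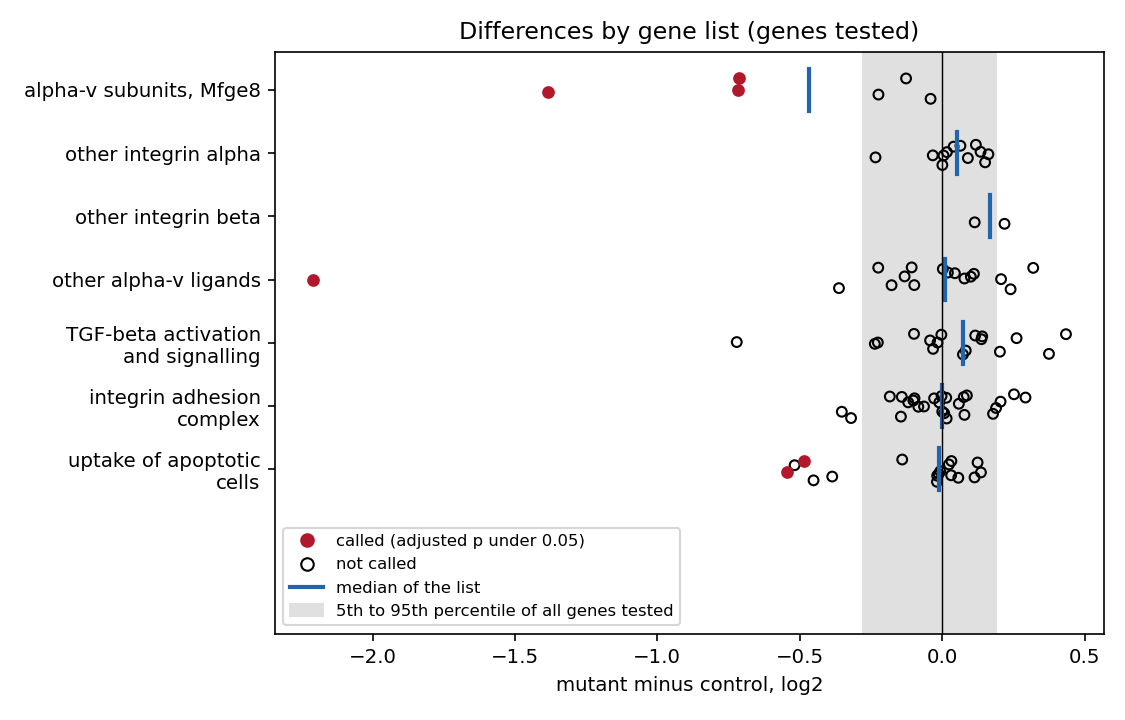
Each circle is 1 tested gene, placed on the horizontal axis by its log2 difference, mutant minus control, in the list named at the left; filled circles were called in limma, blue bars are list medians, and the grey band runs from the 5th to the 95th percentile of all genes tested (-0.28 to 0.19). The medians of the 6 other lists lie between -0.01 and 0.17, and that of the alpha-v subunits and Mfge8 at -0.47.

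Genes with the pattern closest to each called gene were sought by the root mean square distance between log2 values centred on each gene's mean over the 4 arrays. For Mfge8 the 5 closest were Bcan, Ednrb, Ccnd2, Abhd4 and Scrg1, at distances of 0.109 to 0.124 and with differences between -1.48 and -1.15. For Itgav they were Tpx2, Etv4, Tacc3, Pon2 and Aspm, at 0.0175 to 0.0315. For Itgb5 they were Pclaf, Etv4, Qk, Itgav and Cmtm5, at 0.0124 to 0.0334. The place of Qk rests on the feature used, which differed by -0.71. With the mean of all its features Qk differed by -0.26 (limma adjusted p = 0.184). Itgav and Itgb5 were 0.0334 apart, and Mfge8 was 0.351 from Itgav and 0.364 from Itgb5. The values were centred but not scaled, so the distances also reflect the size of the differences given above. Since 4 arrays fix each pattern, these distances are a description.

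Some markers of glial cells fell beside Mfge8, Itgav and Itgb5, and others did not pass the test. The share of all genes tested that fell was 1.01%. Of 9 astrocyte markers 7 were tested and 3 fell in limma (Slc1a3, Aldoc and Aldh1l1), and the summed level of the list on a linear scale was 2734 and 3418 in mutants, against 6960 and 7070 in controls. Aqp4 and S100b were under the filter, and Gfap overlapped between the groups at a difference of 0.04. Of 8 radial glia markers, all tested, 2 fell (Fabp7 and Hopx), and the sum was 7594 and 9110 in mutants, against 14256 and 14374 in controls. Of 6 markers of oligodendrocyte precursors, all tested, 3 fell (Pdgfra, Olig1 and Gpr17), with sums of 512.5 and 511.9 in mutants, against 1451 and 1440 in controls, while Cspg4 overlapped at a difference of 0.01. Of 8 microglia markers 6 were tested and 1 fell (Fcrls), with sums of 956 and 986 in mutants, against 1163 and 1148 in controls, and P2ry12 and Aif1 were under the filter, while Tmem119 overlapped at a difference of 0.05. Among markers tested, both mutants lay below both controls for 6 of 7 astrocyte and 8 of 8 radial glia genes. The same held for 5 of 6 oligodendrocyte precursor and 5 of 6 microglia genes, and for 21.4% of all genes tested. In that order, 5, 7, 5 and 4 were lower at an unadjusted p under 0.05 in limma (7.69% of all genes tested). None of the 7 endothelial, 5 pericyte and 5 meningeal markers tested was called in limma (0, 1 and 0 had an unadjusted p under 0.05), and the summed levels of mutants and controls overlapped in each of these lists. Of 6 projection neuron markers none was called in limma, 2 had an unadjusted p under 0.05 and were higher (5.73% of all genes tested), and in all 6 both mutants lay above both controls (22.8% of all genes tested). The choroid plexus gene Ttr was at 6.50 and 7.17 in mutants, against 6.67 and 9.15 in controls, high on control 2 alone, and without control 2 the differences were -1.40 for Mfge8, -0.73 for Itgav and -0.74 for Itgb5. The part of these cell types in the falls of Mfge8, Itgav and Itgb5 was not tested. In whole tissue, fewer cells of a type and less RNA per cell cannot be told apart.

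**Figure D4:**
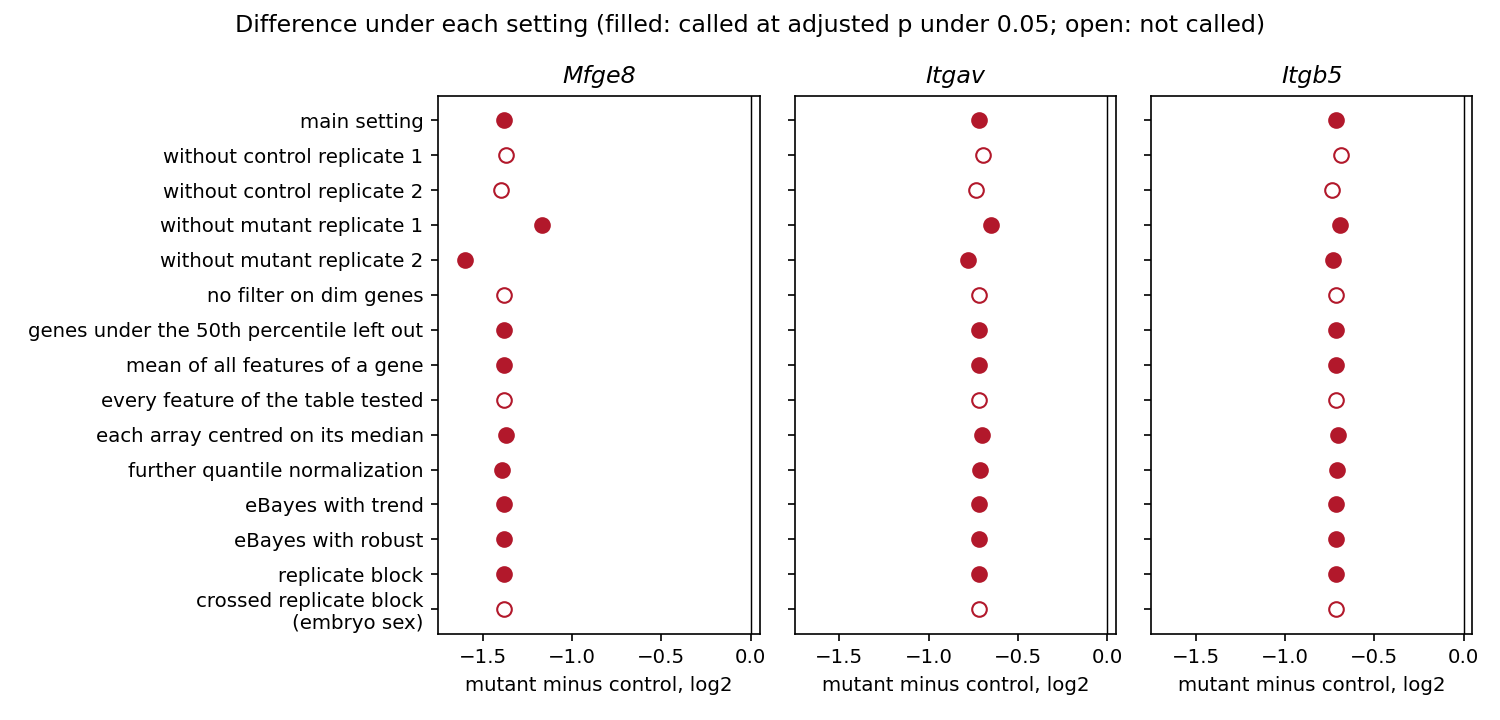
Log2 differences, mutant minus control, of Mfge8, Itgav and Itgb5 under each setting listed at the left; filled points were called in limma at an adjusted p under 0.05 and open points were not. The differences stay between -1.60 and -1.17 for Mfge8, between -0.78 and -0.65 for Itgav and between -0.74 and -0.69 for Itgb5, while 5 settings end the calls.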

How the data were processed

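Total RNA from dorsal cortex was extracted with Trizol, purified on columns, labelled in a whole-transcript sense protocol with biotin and hybridised to single-colour arrays, per the labels' protocols. The deposited table holds log2 values from RMA, run by the authors per the submitters' processing notes. This method corrects background, quantile-normalizes and summarises probes, so a shift shared by most genes is removed and folds of dim genes are compressed. The version was not given in the sources used here. Base 2 was taken from how far the values range. Precision is limited by the number of arrays, and there was no measure of signal over background.

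Of 35557 features, 21789 carry 1 symbol in the platform annotation, 1621 several, and 12147 are not listed there. Symbols were updated by Entrez identifier (21698 matched) in RefSeq for GRCm38.p6. The feature with the highest mean was kept for each of 19938 genes, and genes with a mean under the 30th percentile (6.16) were left out, which left 13956. Mutant and control arrays were compared across all of these by lmFit and eBayes of limma 3.58.1 (R 4.3.3) with neither trend nor covariate, with Benjamini-Hochberg adjustment over the 13956 genes and a threshold of 0.05. The procedure was tested on simulated data. Beside the members, the named genes are Map2k1 and Map2k2, called genes of each list or the 2 with the smallest p, called markers, and the 5 closest patterns. Members and lists were chosen with earlier results of these data known. Alternatives left out an array, changed the filter, features, scaling, variance prior or blocks. Same-numbered arrays of the 2 groups deviated from their group means with a correlation of -0.16. These arrays were of opposite sex, and Xist and Y-linked genes entered the correlation, so it cannot tell whether the numbers mark pairs. The numbers were not taken as pairs in the main setting. Nothing in the labels gives a litter or batch, and p-values measure the spread between these arrays.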

Additional observations from a re-analysis of the deposited data

How the results depend on the processing

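The differences of Mfge8, Itgav, Itgb5, Itgb8 and Itgb1 were negative in each of 14 alternatives, but most of these could not change the sign. For these genes both mutants lay below both controls, and each gene has 1 feature. Leaving out an array, or changing the filter, features, variance prior or blocks, therefore kept the sign by construction. The difference of Itgb3 was negative in 12 of 13 and was 0.00182 without control 2, with a range of -0.0834 to 0.00182 over the arrays left out. The stricter filter left Itgb3 untested. The number of the 7 genes called was 0 to 3 when 1 array was left out, against 3 in the main setting, and 143 called genes in all became 9 to 881. The calls of Mfge8, Itgav and Itgb5 stood without either mutant and were lost without either control, where the spread came from the mutant pair. The lone array is assumed to vary like the other pair. When dim genes were kept, 0 of the 7 and 15 genes in all were called, and when every feature was tested 0 and 0. In both, 4 of the 7 had an unadjusted p under 0.05 in limma. So did 2115 of all 19938 genes in the first and 3003 of 35557 features in the second. With a variance trend 238 genes were called. The replicate block left 116 genes called and kept Mfge8, Itgav and Itgb5 (adjusted p of 0.0481, 0.0481 and 0.0450). The crossed block, which is also sex as a covariate and was chosen after seeing the data, called 0 of the 7 and 17 genes in all. Mfge8, Itgav and Itgb5 had a limma adjusted p of 0.0540 each there. With that block 4 of the 7, and 1454 of the 13956 genes tested, had an unadjusted p under 0.05 in limma. The settings that lost the calls tested more features or left fewer residual degrees of freedom, but so did settings that kept them (either mutant left out, the replicate block), and the cause was not tested. Differences of dim genes such as Itgb3 and Itgb6 are limited by background.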
